A study of Mus musculus with 25 samples.

Results

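The comparison described here sets retinas of mice given AA147 against retinas of mice given vehicle, in bulk RNA sequencing libraries whose expression tables list the same genes. Its members were 10 of the 25 libraries of the series, 5 labelled AA147 and the 5 of the first of 2 vehicle sets, called vehicle set 1 here; genes entered the test with at least 1 FPKM in 5 or more of these 10 libraries. FPKM counts fragments relative to transcript length and sequencing depth, and a change is the AA147 mean minus the vehicle mean of log2(FPKM + 1), which understates the change of low genes; it is given after the gene, with its 95% confidence interval (CI) from limma. The mice were wild-type C57BL/6J, injected into the vitreous on postnatal day 30. AA147 was given at 10 µM. Control animals had both eyes injected with 1 µL of saline with 0.05% to 0.1% DMSO, although the labels call these samples PBS. The AA147 columns carry a time of 24 h and the vehicle columns carry none, while the study names collections at 24 h, 3 days and 7 days; the compound and the time of collection therefore cannot be told apart where they differ. No label says which libraries came from separate animals, so the p-values measure the spread between libraries, which may in part be technical.

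AA147 is described by the study as an activator of ATF6. ATF6 is a membrane protein of the endoplasmic reticulum (ER) and one of the sensors of the unfolded protein response, beside IRE1 and PERK. When unfolded proteins build up, ATF6 moves to the Golgi, the proteases encoded by Mbtps1 and Mbtps2 cut it, and its released part enters the nucleus and switches on genes of chaperones, disulfide isomerases and ER-associated degradation. Photoreceptors make large amounts of membrane protein through the ER, and loss of ATF6 in people causes cone disorders. Tunicamycin, which blocks N-glycosylation and sets off all arms of the response, was the study's positive control.

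Depths of 23.5 M to 24.8 M fragments per library were estimated from the steps between low FPKM values, and 12584 to 12850 genes reached 1 FPKM in a library. For a transcript of 2 kb, a level of 1 FPKM stood for about 49.0 fragments in a library of median depth. Pairs of the 10 libraries correlated at 0.980 to 0.995 over log2(FPKM + 1) of the tested genes, and no pair was identical. The first principal component held 33.4% of the variance and the second 26.7%; on both, AA147 and vehicle libraries were interleaved. Some libraries stood apart. Y-linked transcripts were near 0 in AA147 libraries 4 and 5, where Eif2s3y had 0.21 and 0.1 FPKM, against 47.19 to 51.76 FPKM in the other AA147 libraries and 33.26 to 54.63 FPKM in the 5 vehicle libraries. Lens transcripts varied widely although the lens had been removed. The 23 listed lens genes summed to 43.97 and 24.64 FPKM in AA147 libraries 3 and 5. Their sums were 1363.64 to 2061.37 FPKM in the other AA147 libraries and 229.79 to 2556.27 FPKM in vehicle libraries. Gnat1, the alpha subunit of rod transducin, was the check of the tissue, with 6584.86, 6160.94, 7007.93, 6418.36 and 6259.38 FPKM in the AA147 libraries, against 6475.54, 6927.62, 6475.75, 6094.09 and 7173.76 FPKM in vehicle set 1.

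No gene passed the test between AA147 and vehicle set 1. Of 12701 genes tested with limma, 0 (0%) had an adjusted p under 0.05, the threshold at which a gene is called here, and the smallest adjusted p was 0.363; 476 genes (3.75%) had an unadjusted p under 0.05, of which 322 (2.54%) had higher means with AA147 and 154 (1.21%) lower means. All AA147 libraries lay above all vehicle libraries for 58 genes (0.457%) and below them for 27 genes (0.213%). The median change of all genes was 0.01 on the log2 scale, the 5th and 95th percentiles were -0.10 and 0.11, and 88.6% of genes had a change under 0.1 in size. The size of change that could have been missed differs between genes. The median 95% confidence interval reached 0.12 on the log2 scale to either side, or 1.08-fold, and for 97.2% of genes the whole interval lay within 0.5 of 0. Changes over 0.5 in size were found in 31 genes and over 1 in 17 genes, none of them past the test. Since these are bulk samples, fewer cells of a type and less RNA per cell cannot be told apart in any value below.

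**Figure D1:**
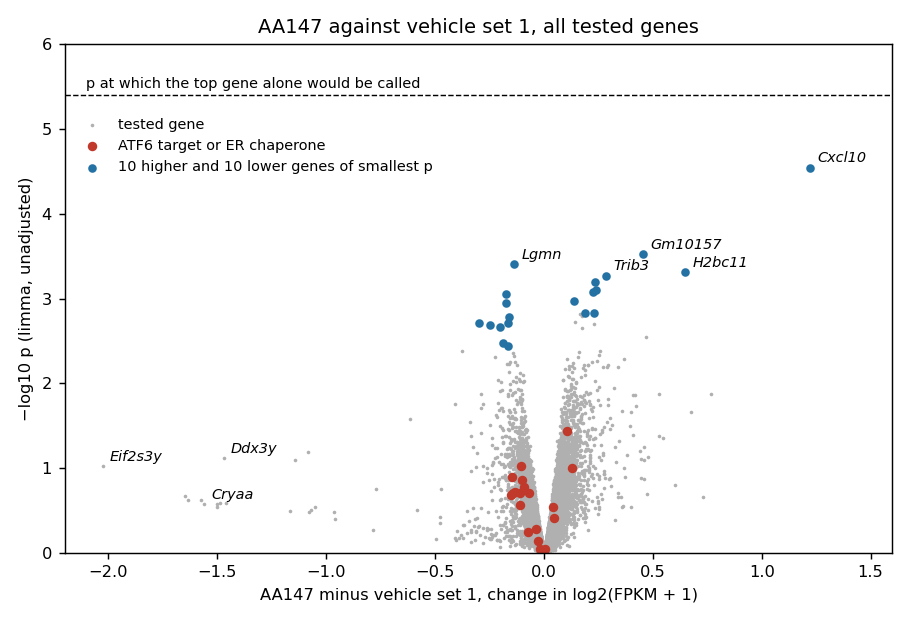
Change in log2(FPKM + 1), AA147 minus vehicle set 1 (x axis), against −log10 of the unadjusted limma p (y axis) for the 12701 tested genes; 20 ATF6 targets and ER chaperones are red, the 10 higher and 10 lower genes of smallest p are blue. Every gene lies under the dashed line, the p at which the top gene alone would be called; Y-linked and lens genes lie far to the left with large p.

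ATF6 targets and ER chaperones were the first group examined, since the compound is described as an activator of ATF6. Promoters of this class are known to carry the ER stress response element (ERSE), CCAAT and CCACG with 9 unspecified bases between them, which ATF6 binds together with NF-Y, or the shorter ERSE-II, ATTGG and CCACG with 1 unspecified base between them. In the RefSeq promoter windows of the GRCm38.p6 assembly, which run from 250 bases before the gene start to 50 bases after it and were searched on both strands, the ERSE was found in 39 of 32851 windows (0.119%) and in 9 of the 18 windows of the list, those of Calr, Canx, Creld2, Derl3, Dnajc3, Hsp90b1, Hspa5, Pdia6 and Syvn1. The ERSE-II was found in 12 of 32851 windows (0.0365%) and in those of Dnajb11 and Herpud1. No ERSE match lies in the same window as an ERSE-II match among these. A match is a description of letters in the window, not of binding. The windows of 3 list members are given 5′ to 3′ because their transcripts carry the result that follows; capitals mark the element.
Hspa5, chr2:34771840-34772139, forward strand: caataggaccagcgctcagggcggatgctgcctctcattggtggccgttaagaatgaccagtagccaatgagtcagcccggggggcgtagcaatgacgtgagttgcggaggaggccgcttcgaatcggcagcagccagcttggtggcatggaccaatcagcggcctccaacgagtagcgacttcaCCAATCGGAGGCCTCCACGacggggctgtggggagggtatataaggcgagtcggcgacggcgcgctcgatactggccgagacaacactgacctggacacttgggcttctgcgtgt
Hsp90b1, chr10:86705395-86705694, reverse strand: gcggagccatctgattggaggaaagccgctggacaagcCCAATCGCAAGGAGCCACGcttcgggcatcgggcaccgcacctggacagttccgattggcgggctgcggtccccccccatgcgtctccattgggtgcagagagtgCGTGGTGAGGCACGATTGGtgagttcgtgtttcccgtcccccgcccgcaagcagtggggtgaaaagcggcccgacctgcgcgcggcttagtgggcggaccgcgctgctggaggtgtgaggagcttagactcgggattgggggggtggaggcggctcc
Herpud1, chr8:94386179-94386478, forward strand: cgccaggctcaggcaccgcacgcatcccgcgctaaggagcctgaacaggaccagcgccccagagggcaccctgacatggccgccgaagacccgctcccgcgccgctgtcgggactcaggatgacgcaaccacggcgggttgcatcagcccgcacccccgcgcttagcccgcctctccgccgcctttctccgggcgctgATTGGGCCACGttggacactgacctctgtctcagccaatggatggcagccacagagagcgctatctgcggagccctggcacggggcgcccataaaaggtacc

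Transcripts of ATF6 targets did not pass the test in either direction. All 21 listed genes were measured, 20 entered the test, 0 were called (0% of all tested genes were), 6 had a positive and 14 a negative change, and the median was -0.07 against 0.01 over all genes. Hspa5 had 147.03, 162.61, 130.98, 113.84 and 144.72 FPKM in the AA147 libraries, against 186.9, 182.22, 135.66, 140.9 and 135.29 FPKM in vehicle set 1. Hspa5 encodes BiP, the main Hsp70 chaperone of the ER lumen; its groups overlapped, with the lowest value in AA147 library 4 and the highest in vehicle libraries 1 and 2. Means were 140 ± 18.4 FPKM with AA147 and 156 ± 26.0 FPKM with vehicle (SD, n = 5 each), a change of -0.15 (95% CI -0.41 to 0.10). Hsp90b1 had 225.86, 237.43, 199.21, 175.08 and 207.05 FPKM in the AA147 libraries, against 246.86, 263.31, 216.28, 225.2 and 202.42 FPKM in vehicle set 1. Hsp90b1, the ER Hsp90 named GRP94, gave -0.14 (95% CI -0.34 to 0.05), and its groups overlapped. Calr had 345.68, 358.72, 308.18, 248.08 and 310.28 FPKM in the AA147 libraries, against 372.98, 404.11, 311.73, 329.39 and 309.5 FPKM in vehicle set 1. Calr encodes calreticulin, the lectin chaperone of the ER, and its change of -0.14 (95% CI -0.37 to 0.09) again came with overlapping groups.

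The remaining members lay in the same narrow range. The largest positive change was that of Herpud1, an adaptor of ER-associated degradation and the gene with the ERSE-II printed above. Herpud1 had 40.44, 44.17, 54.8, 48.38 and 46.07 FPKM in the AA147 libraries, against 39.02, 44.52, 41.27, 43.02 and 45.15 FPKM in vehicle set 1. AA147 library 3 was the highest of the 10, the other libraries overlapped, and the change was 0.13 (95% CI -0.03 to 0.28). Selenok, a selenoprotein of the ER membrane, was the one member with an unadjusted limma p under 0.05 and it was not called; it gave 0.11 (95% CI 0.01 to 0.20), and the vehicle mean included 1 library, number 2, well below the others at 70.94 FPKM. The secreted and co-chaperone genes gave -0.02 (95% CI -0.33 to 0.29) for Sdf2l1, -0.07 (95% CI -0.35 to 0.20) for Manf and -0.11 (95% CI -0.29 to 0.07) for Creld2. The chaperone helpers Hyou1, Dnajb11 and Dnajc3 gave -0.11 (95% CI -0.23 to 0.02), -0.09 (95% CI -0.23 to 0.04) and -0.10 (95% CI -0.24 to 0.04). The disulfide isomerases Pdia4 and Pdia6 gave -0.03 (95% CI -0.19 to 0.14) and -0.13 (95% CI -0.34 to 0.08). Across the 20 genes, the changes ran from -0.15 to 0.13, the highest upper confidence bound was 0.29 (Sdf2l1), and the lowest bound was -0.41 (Hspa5). Derl3 had 0.99, 1.2, 0.8, 0.73 and 0.82 FPKM in the AA147 libraries, against 1.1, 0.84, 0.85, 0.44 and 0.59 FPKM in vehicle set 1. Derl3, a degradation factor that is strongly inducible by ER stress, stayed under the filter of 1 FPKM in 5 libraries and was not tested.

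**Figure D2:**
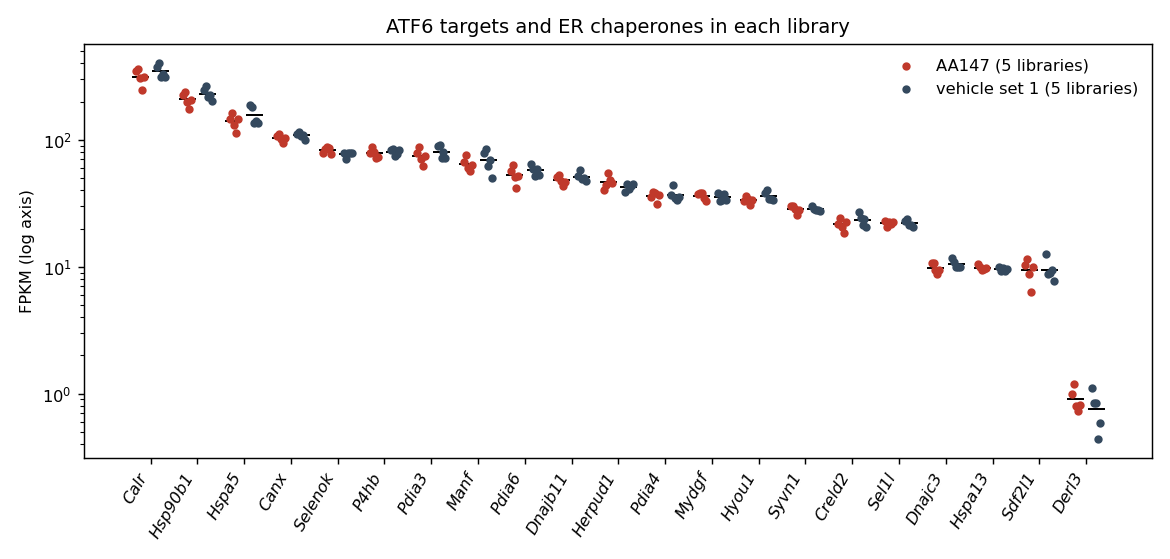
FPKM (log axis) of the 21 ATF6 targets and ER chaperones in each of 5 AA147 libraries (red) and 5 vehicle set 1 libraries (dark); black bars are group means. The groups overlap for every gene shown.

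The direction of this list depended on which vehicle libraries it was set against. Its median was negative, at -0.11 to -0.01, in every fit that used vehicle set 1 alone. Leaving out 1 library at a time gave -0.11 to -0.03, and the other scalings gave -0.08. The median nearest to no change, -0.01, came without AA147 libraries 4 and 5, those that lack Y-linked transcripts. Fits that adjusted for Y-linked expression gave -0.02, beside -0.07 in the main fit. The table of vehicle set 2 belongs to another family with a different gene list. Against that set the median was 0.15 and 12 of 20 members were called, beside 5701 of all 12757 tested genes. Members went both ways there: 9 had an unadjusted limma p under 0.05 with a positive change and 4 with a negative one. Hspa5 was not among the called members. The vehicle sets themselves differed at 5838 of 12755 genes (45.8%) under the same limma test. Hspa5 averaged 125 ± 24.1 FPKM in vehicle set 2 (SD, n = 5), below both the AA147 and the vehicle set 1 mean, and Creld2, a secreted ER protein, averaged 15.2 ± 0.952 FPKM there. Values in the following paragraphs use vehicle set 1 unless stated.

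The sensors and their processing enzymes had changes close to 0. Atf6 had 13.62, 12.61, 13, 13.36 and 12.66 FPKM in the AA147 libraries, against 13.89, 13.04, 12.56, 11.92 and 12.53 FPKM in vehicle set 1. The change of Atf6 was 0.03 (95% CI -0.06 to 0.12). Its relative Atf6b gave 0.02 (95% CI -0.10 to 0.13), and the Golgi proteases Mbtps1 and Mbtps2 0.01 (95% CI -0.06 to 0.08) and -0.02 (95% CI -0.15 to 0.11). Ern1, which encodes IRE1, gave -0.03 (95% CI -0.14 to 0.09) and Eif2ak3, which encodes PERK, -0.03 (95% CI -0.11 to 0.05). In the list of 17 sensors and regulators, 0 were called, the median was 0.01, and Nfya, a subunit of NF-Y, was the one with an unadjusted p under 0.05 at -0.11 (95% CI -0.20 to -0.03). Among 23 targets of IRE1 and XBP1 and genes of ER translocation, 0 were called or had an unadjusted p under 0.05, and the median was 0.00. Xbp1 had 40.34, 46.92, 45.21, 38.5 and 45.14 FPKM in the AA147 libraries, against 48.53, 48.32, 40.17, 43.9 and 40.11 FPKM in vehicle set 1. Xbp1 encodes the transcription factor spliced by IRE1, and gene-level FPKM does not separate its spliced form; its change was -0.03 (95% CI -0.19 to 0.12). Dnajb9, an ER co-chaperone induced through XBP1, gave 0.06 (95% CI -0.06 to 0.19).

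Other lists of ER quality control held no called gene. Of 23 genes of ER-associated degradation, 0 were called, with a median of 0.00; Selenok had an unadjusted p under 0.05 with a positive change, and the lectin Erlec1 with a negative one at -0.09 (95% CI -0.17 to -0.02). Sel1l, the scaffold of the Hrd1 ligase, gave 0.01 (95% CI -0.09 to 0.11), its ligase Syvn1 0.00 (95% CI -0.10 to 0.10) and the segregase Vcp 0.02 (95% CI -0.07 to 0.10). Of 25 disulfide isomerases and ER oxidases, 0 were called and the median was -0.01; Selenom, an ER selenoprotein, was the one with an unadjusted p under 0.05 at 0.12 (95% CI 0.02 to 0.23), and P4hb gave -0.04 (95% CI -0.16 to 0.09). Of 30 genes of N-glycosylation, 0 were called, the median was 0.01, and the oligosaccharyltransferase subunit Dad1 gave 0.08 (95% CI -0.13 to 0.28).

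Among targets of PERK and ATF4, the arm that drives amino acid synthesis and transport under stress, Trib3 was the member whose groups did not overlap. Trib3 had 5.02, 4.92, 4.67, 5.22 and 5.22 FPKM in the AA147 libraries, against 4.06, 3.61, 3.89, 3.52 and 4.62 FPKM in vehicle set 1. Every AA147 library lay above every vehicle library, the nearest being AA147 library 3 and vehicle library 5. Trib3 encodes a pseudokinase induced by ATF4 and CHOP. Means were 5.01 ± 0.23 FPKM with AA147 and 3.94 ± 0.44 FPKM with vehicle (SD, n = 5 each), a change of 0.29 (95% CI 0.15 to 0.42); the limma adjusted p was 0.997, so it was not called, and 0.457% of all tested genes also had every AA147 library above every vehicle library. Against vehicle set 2, in which Trib3 had 4.97, 4.41, 3.75, 10.14 and 9.67 FPKM, the change was -0.24. The promoter window of Trib3 is shown because of this separation; its capitals mark a match on the opposite strand to the C/EBP-ATF response element searched as TGATGNAAN, found in 3.95% of all windows and in 10 of the 32 windows of this list.
Trib3, chr2:152344011-152344310, reverse strand: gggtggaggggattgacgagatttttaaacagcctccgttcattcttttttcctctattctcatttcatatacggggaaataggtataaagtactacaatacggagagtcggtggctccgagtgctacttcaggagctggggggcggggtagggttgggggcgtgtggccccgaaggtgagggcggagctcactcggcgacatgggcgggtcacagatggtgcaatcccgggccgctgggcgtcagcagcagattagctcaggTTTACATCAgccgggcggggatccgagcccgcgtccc

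The groups overlapped for every other tested member of this arm. Of 33 listed members 28 were tested, 0 were called, 23 had a positive change, and the median was 0.05. Trib3, Atf3 and Mthfd2 had unadjusted p-values under 0.05, all with positive changes. Atf3 had 8.28, 8.86, 6.92, 8.99 and 6.35 FPKM in the AA147 libraries, against 8.81, 3.37, 4.98, 5.95 and 6.24 FPKM in vehicle set 1. Atf3, a stress-induced transcription factor, gave 0.41 (95% CI 0.02 to 0.80); its groups overlapped because vehicle library 1 was as high as the AA147 libraries. Mthfd2 had 5.14, 5.97, 7.07, 7.74 and 7.02 FPKM in the AA147 libraries, against 6.18, 5.39, 4.74, 5.97 and 4.87 FPKM in vehicle set 1. Mthfd2, a mitochondrial enzyme of one-carbon metabolism, gave 0.23 (95% CI 0.02 to 0.45). Ddit3 had 67.27, 74.49, 72.82, 64.47 and 73.26 FPKM in the AA147 libraries, against 72.79, 68.46, 62.22, 63.15 and 69.16 FPKM in vehicle set 1. Ddit3, which encodes the pro-apoptotic factor CHOP, gave 0.07 (95% CI -0.05 to 0.19). Atf4 itself gave 0.09 (95% CI -0.08 to 0.25) and Chac1, a glutathione-degrading enzyme, 0.09 (95% CI -0.10 to 0.28). Against vehicle set 2 the list median was -0.27, with 4 of 27 members positive.

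NRF2 targets, which defend against oxidative stress, did not pass the test. Of 28 tested members 0 were called, 19 had positive changes, and the median was 0.01. Hmox1 had 4.84, 6.27, 4.67, 4.73 and 3.92 FPKM in the AA147 libraries, against 5.54, 4.02, 3.69, 5.25 and 4.82 FPKM in vehicle set 1. Hmox1, the haem oxygenase, gave 0.06 (95% CI -0.19 to 0.30) with overlapping groups. Nqo1, a quinone reductase, gave -0.07 (95% CI -0.35 to 0.22), and Gclc and Gclm, the subunits of the rate-limiting enzyme of glutathione synthesis, 0.01 (95% CI -0.09 to 0.10) and 0.03 (95% CI -0.11 to 0.16). Srxn1 and Txnrd1, enzymes of thiol reduction, gave 0.01 (95% CI -0.07 to 0.09) and 0.01 (95% CI -0.10 to 0.12). Me1, malic enzyme, had an unadjusted p under 0.05 with a change of 0.10 (95% CI 0.03 to 0.17). The factor's own transcript, Nfe2l2, gave -0.02 (95% CI -0.17 to 0.14).

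Cytosolic heat shock, apoptosis and sterol genes held no called member. Among 18 heat shock genes 0 were called and the median was 0.01; Hsp90aa1, the inducible cytosolic Hsp90, had an unadjusted p under 0.05 at -0.11 (95% CI -0.22 to -0.01), and Hspa8, the constitutive Hsp70, gave -0.04 (95% CI -0.17 to 0.09). Among 15 tested genes of apoptosis and p53, 0 were called and the median was 0.01. Bax had 32.45, 32.72, 36.18, 33.49 and 29.93 FPKM in the AA147 libraries, against 30.6, 30.69, 27.68, 31.99 and 27.27 FPKM in vehicle set 1. Bax, which permeabilizes the mitochondrial outer membrane, gave 0.15 (95% CI 0.02 to 0.27), with an unadjusted p under 0.05 and overlapping groups. Of 26 genes of sterol and fatty acid synthesis 0 were called, but 21 had negative changes, the median was -0.05, and 3 had an unadjusted p under 0.05, among them Idi1, an isomerase of isoprenoid synthesis. Idi1 had 22.89, 25.14, 20.58, 23.14 and 23.36 FPKM in the AA147 libraries, against 23.88, 25.59, 26.77, 26.24 and 24.45 FPKM in vehicle set 1. It gave -0.14 (95% CI -0.25 to -0.03), with overlapping groups.

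The median 95% confidence interval of photoreceptor genes reached 0.13 to either side for rods and for cones, beside 0.12 over all tested genes. Of 26 rod genes 0 were called, 17 had negative changes, and the median was -0.03; Gnat1 gave -0.03 (95% CI -0.18 to 0.12). Gngt1 had 785.41, 786.45, 677.13, 701.7 and 780.14 FPKM in the AA147 libraries, against 788.56, 904.43, 845.46, 853.99 and 964.23 FPKM in vehicle set 1. Gngt1, the gamma subunit of rod transducin, was the one rod gene with every AA147 library below every vehicle library, where 0.213% of all tested genes were. Its change was -0.22 (95% CI -0.36 to -0.08), and its limma adjusted p of 0.997 left it uncalled. Of 15 tested members of the cone list 0 were called and the median was -0.03. The members Pde6h, Pde6c and Grk1 had unadjusted p-values under 0.05 with negative changes, and whether a listed gene is specific to cones was not tested. Pde6h had 355.2, 330.29, 284.15, 309.3 and 289.1 FPKM in the AA147 libraries, against 350.11, 332.71, 358.13, 338.41 and 360.3 FPKM in vehicle set 1. Pde6h, the inhibitory subunit of cone phosphodiesterase, gave -0.15 (95% CI -0.28 to -0.02); AA147 libraries 1 and 2 lay within or close to the vehicle range and the other 3 below it. Against vehicle set 2 the rod median was 0.13, with 19 of 26 positive.

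Inner retinal neurons showed no called gene. The medians were 0.01 for 19 bipolar genes, 0.03 for 18 tested amacrine genes, -0.03 for 8 tested horizontal cell genes and 0.04 for 20 ganglion cell genes, with no unadjusted p under 0.05 in any of these lists. Nefl had 185.44, 183.83, 207.21, 199.73 and 200.8 FPKM in the AA147 libraries, against 186.34, 187.02, 197.91, 197.72 and 184.29 FPKM in vehicle set 1. Nefl, the light neurofilament subunit of ganglion cells, gave 0.03 (95% CI -0.06 to 0.13), and Sncg 0.11 (95% CI -0.10 to 0.31), with AA147 library 3 the highest of the 10. All 9 tested genes of axon injury had positive changes, beside 7266 of all 12701 genes, with a median of 0.11, and 0 were called. Atf3 and Ddit3 belong to this list and to that of PERK and ATF4 targets above, so the lists are not separate. Against vehicle set 2, 5 of 9 were positive. Jun had 24.21, 27.96, 22.6, 29.11 and 24.55 FPKM in the AA147 libraries, against 24.2, 19.38, 21.95, 22.63 and 21.75 FPKM in vehicle set 1. Jun, a transcription factor induced in injured ganglion cells, gave 0.21 (95% CI 0.05 to 0.37); AA147 library 3 lay under vehicle libraries 1 and 4.

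Glial genes varied from library to library within both groups. Of 21 genes of Müller glia, the radial glia of the retina, 0 were called and the median was 0.01. Glul had 481.68, 459.88, 873.96, 519.61 and 631.23 FPKM in the AA147 libraries, against 484.36, 708.98, 952.36, 665.69 and 669.83 FPKM in vehicle set 1. Glul, glutamine synthetase, spanned 459.88 to 873.96 FPKM with AA147 and 484.36 to 952.36 FPKM with vehicle, and gave -0.24 (95% CI -0.66 to 0.18). Vim had 252.01, 313.38, 250.71, 268.22 and 246.98 FPKM in the AA147 libraries, against 265.24, 188.47, 180.51, 235.42 and 221.98 FPKM in vehicle set 1. Vim, vimentin, an intermediate filament of Müller glia, gave 0.29 (95% CI 0.07 to 0.52); the 5 AA147 libraries lay in the upper part of the range and vehicle library 1 among them. Gfap had 62.64, 69.63, 30.75, 48.52 and 24.92 FPKM in the AA147 libraries, against 53.2, 34.04, 29.59, 31.56 and 27.56 FPKM in vehicle set 1. Gfap, the classical marker of gliosis, was highest in AA147 libraries 1 and 2 and vehicle library 1, and gave 0.35 (95% CI -0.24 to 0.95). Lcn2 was likewise high in AA147 libraries 1 and 2 and vehicle library 1, with 48.59, 71.46, 28.23, 4.8 and 15.55 FPKM in the AA147 libraries and 73.23, 29.49, 17.73, 42.2 and 27.99 FPKM in vehicle set 1. Of 21 tested gliosis genes 0 were called, 12 had positive changes, and the median was 0.14, with a median half-interval of 0.51. When 1 library at a time was left out, the gliosis median ran from 0.01 without AA147 library 1 to 0.27 without vehicle library 1, and it was 0.32 without AA147 libraries 4 and 5.

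Interferon and antigen presentation genes had positive changes without passing the test, and the size rested largely on AA147 library 2. All 24 tested members were positive, beside 7266 of all 12701 genes, with a median of 0.16; 0 were called, and Gbp2, Gbp3, Ifit1 and Ifit3 had unadjusted p-values under 0.05. Ifit1 had 2.77, 6.64, 4.23, 1.37 and 2.08 FPKM in the AA147 libraries, against 1.56, 2.03, 1.04, 1.25 and 1.18 FPKM in vehicle set 1. Ifit1, an interferon-induced antiviral protein, gave 0.76 (95% CI 0.19 to 1.34); AA147 libraries 1, 2, 3 and 5 exceeded every vehicle library, and library 4 did not. Gbp2 had 4.23, 6.26, 3.75, 3.68 and 3.33 FPKM in the AA147 libraries, against 3.39, 2.61, 2.46, 2.6 and 2.64 FPKM in vehicle set 1. Gbp2, an interferon-induced GTPase, gave 0.47 (95% CI 0.20 to 0.74), with AA147 library 5 just under vehicle library 1. Without AA147 library 2, 17 of 24 members were positive and the median was 0.04; without AA147 libraries 4 and 5, those that lack Y-linked transcripts, all 24 were positive and the median was 0.37. With vehicle set 2 as control, 14 of 24 were positive and the median was 0.07. The microglia and macrophage markers followed the interferon genes in some libraries only. Relative to all 10 libraries, the list mean in AA147 library 1 was 0.26 for interferon genes and -0.06 for microglia genes. In vehicle libraries 2 and 4 it was -0.07 and -0.08 for interferon genes and 0.09 and 0.08 for microglia genes. In the other libraries both lists had the same sign. The 20 listed microglia and macrophage genes summed to 76.34 to 131.14 FPKM with AA147, highest in library 2, and to 72.13 to 104.45 FPKM with vehicle. The median change of the 17 tested markers was 0.06. Their part in the interferon values was not tested.

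Cxcl10, a chemokine induced by interferon, had the smallest p of all genes. Cxcl10 had 1.74, 5.27, 2.36, 2.41 and 2.34 FPKM in the AA147 libraries, against 0.8, 0.34, 0.52, 0.7 and 0.52 FPKM in vehicle set 1. Every AA147 library lay above every vehicle library, and AA147 library 2 was the highest of the 10. Means were 2.82 ± 1.39 FPKM with AA147 and 0.58 ± 0.18 FPKM with vehicle (SD, n = 5 each), a change of 1.22 (95% CI 0.82 to 1.63) with a limma p of 2.86e-05 and an adjusted p of 0.363. It was the 1 gene that passed the filter through the AA147 libraries alone, being at or above 1 FPKM in those 5 and in no vehicle library, so it had to differ to be tested. Leaving out any AA147 library removed it from the test. In vehicle set 2, Cxcl10 had 0.98, 0.85, 0.35, 7.83 and 9.82 FPKM, and the change against that set was 0.10. Its promoter window is shown as that of the gene ranked first; the capitals mark GAAA repeated after 2 unspecified bases, the paired half-sites of the interferon-stimulated response element, present in 3.44% of all windows.
Cxcl10, chr5:92348840-92349139, reverse strand: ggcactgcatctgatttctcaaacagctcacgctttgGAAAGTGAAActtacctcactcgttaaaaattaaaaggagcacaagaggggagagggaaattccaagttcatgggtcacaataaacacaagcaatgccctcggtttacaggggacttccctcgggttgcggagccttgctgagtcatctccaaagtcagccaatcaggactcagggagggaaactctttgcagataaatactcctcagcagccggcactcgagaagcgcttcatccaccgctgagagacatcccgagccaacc

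The other genes of the 10 smallest p-values in each direction had adjusted limma p-values of 0.997 and changes of at most 0.65 in size. H2bc11 had 1.42, 2.43, 1.31, 1.78 and 2.47 FPKM in the AA147 libraries, against 0.86, 0.51, 1.11, 0.62 and 1.04 FPKM in vehicle set 1. H2bc11, a histone H2B gene, gave 0.65 (95% CI 0.35 to 0.94), and all AA147 libraries exceeded all vehicle libraries. H2B genes are nearly identical to each other and are hard to count apart. Gm10157 had 2.01, 1.39, 1.5, 1.97 and 1.55 FPKM in the AA147 libraries, against 0.79, 1.24, 1.01, 0.75 and 1 FPKM in vehicle set 1. Gm10157 is a predicted gene; it gave 0.45 (95% CI 0.26 to 0.65). Nfil3 had 9.87, 11.6, 10.58, 11.45 and 10.19 FPKM in the AA147 libraries, against 9.77, 9, 8.12, 9 and 9.21 FPKM in vehicle set 1. Nfil3, a repressor that works against the clock factor Dbp, gave 0.23 (95% CI 0.11 to 0.35); AA147 library 1 lay just above vehicle library 1. The rest of the higher genes were Pdlim7 (0.23), Mrps30 (0.24), Hpcal1 (0.22), Mex3c (0.14) and Plekhj1 (0.19), a cytoskeletal adaptor, a mitochondrial ribosomal protein, a neuronal calcium sensor, an RNA-binding ubiquitin ligase and a pleckstrin domain protein.

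The 10 genes of smallest p in the negative direction were uncalled as well, and 8 of them are described here. Lgmn had 119.75, 122.68, 122.33, 117.58 and 122.76 FPKM in the AA147 libraries, against 135.14, 135.04, 132.06, 131.19 and 132.16 FPKM in vehicle set 1. Lgmn, the lysosomal protease legumain, gave -0.14 (95% CI -0.20 to -0.08), with every AA147 library below every vehicle library. Utp3 (-0.18) and Utp14b (-0.30), of the small ribosomal subunit processome, and Top1mt (-0.18), the mitochondrial topoisomerase, also had every AA147 library below every vehicle library. So did Zfand2b (-0.17), a zinc finger protein of the proteasome, and 4930467E23Rik (-0.16). Zfp971 (-0.20) and H2bc4 (-0.19) overlapped between groups. Against vehicle set 2, 5701 of 12757 tested genes were called, and the genes of smallest p went both ways. Signs were opposite and past the test there for Lgmn (0.27), 4930467E23Rik (0.35) and H2bc4 (1.31). The same held for the higher genes Mex3c (-0.22) and Plekhj1 (-0.30). Gm10157, H2bc11, Hpcal1, Utp14b, Zfand2b and Zfp971 kept their sign in every setting. They were called with vehicle set 2 and with both vehicle sets as control.

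**Figure D3:**
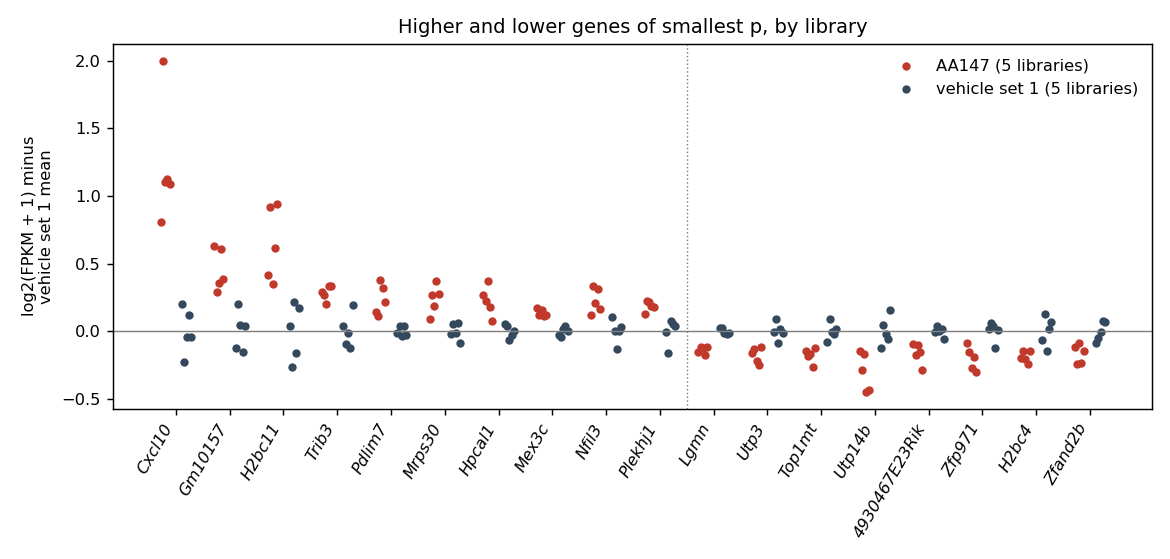
log2(FPKM + 1) minus the vehicle set 1 mean (y axis) for the 10 higher genes of smallest p (left of the dotted line) and 8 of the 10 lower ones, with 5 AA147 libraries (red, left) and 5 vehicle set 1 libraries (dark, right) for each gene. The Cxcl10 values of AA147 lie furthest out, with library 2 at 5.27 FPKM, and Gm10157 and H2bc11 are the others whose change exceeds that of Utp14b in size.

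Vessel genes had medians near 0. Of 20 endothelial genes 0 were called and the median was 0.00; Cldn5, the tight junction claudin of the blood-retina barrier, gave 0.00 (95% CI -0.19 to 0.19), and the lipid transporter Mfsd2a, with an unadjusted p under 0.05, 0.13 (95% CI 0.00 to 0.26). Of 10 tested genes of pericytes and smooth muscle 0 were called and the median was -0.02; Rgs5, a pericyte marker, gave 0.09 (95% CI -0.07 to 0.25) and Mylk, the myosin light chain kinase, -0.16 (95% CI -0.27 to -0.04).

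Markers of tissues next to the retina varied widely between libraries of both groups. Cryaa had 244.31, 356.91, 4.23, 349.71 and 3.78 FPKM in the AA147 libraries, against 154.63, 344.02, 191.4, 31.87 and 507.78 FPKM in vehicle set 1. Cryaa encodes the lens protein alpha A crystallin; AA147 libraries 3 and 5 lay below all others, and the change was -1.56 (95% CI -4.50 to 1.38). All 21 tested lens genes had negative changes, with a median of -1.07 and a median half-interval of 2.34, and 0 were called; without AA147 library 5 the median was -0.38. Ttr had 22.83, 155.79, 70.37, 54.41 and 100.18 FPKM in the AA147 libraries, against 67.23, 52.6, 61.57, 69.87 and 116.79 FPKM in vehicle set 1. Ttr, the thyroxine carrier made by pigment epithelium, gave -0.07 (95% CI -0.97 to 0.83). Of 14 tested genes of pigment epithelium and choroid 12 had negative changes, with a median of -0.11 that lay between -0.38 without AA147 library 2 and 0.06 without AA147 library 1. Of 10 listed cornea genes, 0 reached the filter. The haemoglobin genes, of which Hba-a1 has a near-identical copy, ranged widely: Hbb-bs had 114.7, 291.26, 225.62, 62.21 and 75.89 FPKM in the AA147 libraries, against 164.62, 194.06, 102.14, 286.62 and 88.78 FPKM in vehicle set 1. Their list had 6 tested members and a median of -0.21, which lay between -0.50 without AA147 library 2 and -0.01 without AA147 library 4, and was 0.28 without AA147 libraries 4 and 5. Mbp, the myelin basic protein, was 47.46 FPKM in AA147 library 2 and 9.18 to 11.24 FPKM in the other 9 libraries. The part of the lens, blood and Y-linked differences in any other value was not tested beyond the fits that carry lens and Y-linked levels as covariates, in which 0 genes were called.

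**Figure D4:**
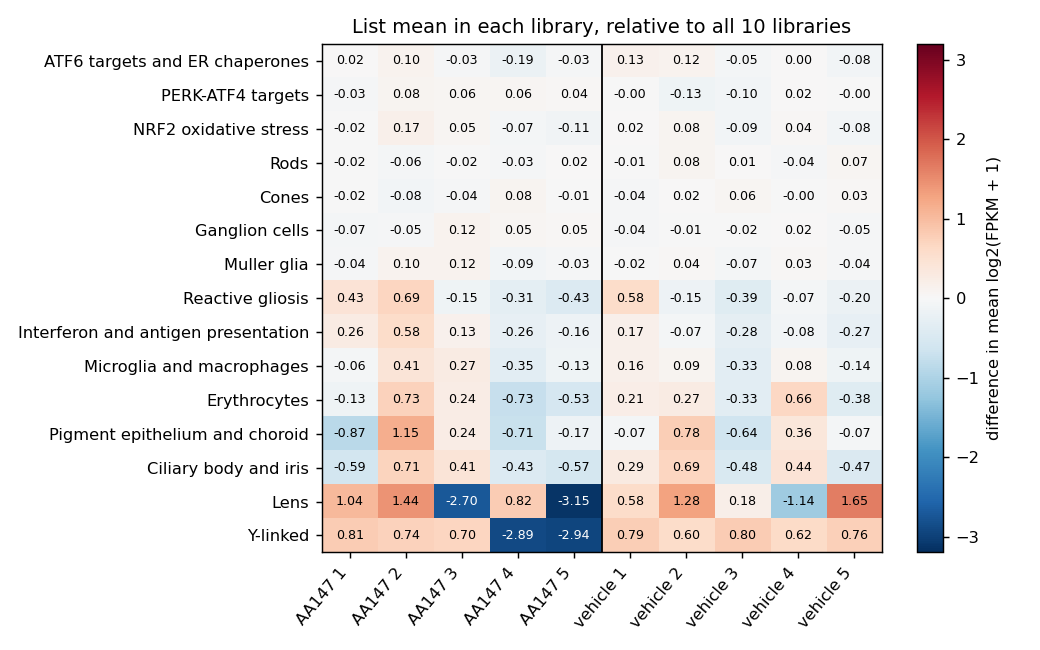
Mean log2(FPKM + 1) of each gene list in each library, as a difference from the mean over all 10 libraries (colour and printed value), with AA147 libraries left of the line and vehicle set 1 right of it. Lens falls to -3.15 and Y-linked genes to -2.94 in AA147 library 5, while ATF6 targets, rods and cones stay within 0.2 of 0 in every library.

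Housekeeping and rhythm lists gave 0 called genes each. The medians were 0.01 for 42 nuclear genes of the respiratory chain and ATP synthase, 0.05 for 37 cytosolic ribosomal proteins, 0.00 for 31 proteasome subunits, 0.04 for 28 genes of autophagy and lysosome, 0.03 for 23 tested genes of hypoxia and glycolysis, 0.03 for 20 clock genes and 0.05 for 16 tested immediate early genes. The remaining lists had few tested members and 0 called: medians were -0.05 for 8 astrocyte genes, 0.00 for 8 cytokine and adhesion genes, -0.10 for 9 genes of ciliary body and iris, -0.01 for 12 genes of fibroblasts and matrix, 0.06 for 3 muscle genes, 0.26 for 3 myelin genes (0.04 without AA147 library 2), 0.00 for 6 cell cycle genes and -0.05 for 6 histone genes, and the 1 tested neutrophil gene, Mmp9, gave 0.00. Positive changes were counted in 30 of 37 ribosomal protein genes and in 24 of 28 autophagy genes, beside 7266 of 12701 over all genes. Among the abundant members, Gapdh gave 0.05 (95% CI -0.12 to 0.21), Atp5b -0.02 (95% CI -0.11 to 0.08) and Ctsb, the lysosomal cathepsin B, 0.01 (95% CI -0.09 to 0.12).

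The AA147 change was then set against the tunicamycin change, each relative to the vehicle libraries of its own table family, in 1 limma fit over 20 libraries. Both compounds were given at 10 µM and both carry 24 h in their column names. The test of the difference called 80 of 13028 genes, 34 (0.261%) with the AA147 change below the tunicamycin change and 46 (0.353%) with it above; 1762 had an unadjusted p under 0.05. The ATF6 list held called members: 7 of its 21 members were called, all with the AA147 change below (Creld2, Derl3, Dnajc3, Hspa5, Hyou1, Pdia4 and Sdf2l1), and the median of the difference was -1.28. The tunicamycin median of the list was 1.18 and that of AA147 in the same fit was -0.07. Hspa5 had a change of -0.15 with AA147 and 2.10 with tunicamycin, a difference of -2.25 (95% CI -3.15 to -1.35; limma adjusted p = 0.0132). Sdf2l1 had a change of -0.02 with AA147 and 2.75 with tunicamycin, a difference of -2.76 (95% CI -3.74 to -1.79; limma adjusted p = 0.00479). Derl3 had a change of 0.12 with AA147 and 3.59 with tunicamycin, a difference of -3.47 (95% CI -4.61 to -2.32; limma adjusted p = 0.00222). Derl3 averaged 0.908 FPKM with AA147, 30.2 FPKM with tunicamycin, and 0.764 and 0.952 FPKM in vehicle sets 1 and 2, so that it passed the filter because of the tunicamycin libraries, as did 5 of the 80 called genes; of the other 20 members, 6 were called. Herpud1 and Trib3 did not pass: Trib3 had a change of 0.29 with AA147 and 1.92 with tunicamycin, a difference of -1.63 (95% CI -2.61 to -0.66; limma adjusted p = 0.132). Of 32 genes of PERK and ATF4, 0 were called, although the tunicamycin median was 0.97 and the difference median -0.94. Without tunicamycin library 3 the test called 344 genes, and with array weights 358, in place of 80. Called genes with the AA147 change below, 34 in all, numbered 21 to 223 when 1 library was left out, with the lowest count without tunicamycin library 4. The ATF6 count depended on the libraries too: Hyou1 and Pdia4 both had a limma adjusted p of 0.0496, and 4 members (Creld2, Derl3, Hspa5 and Sdf2l1) were called without any 1 of the libraries other than tunicamycin libraries 1 and 3. Without tunicamycin library 1 the list had 15 called members, without library 3 it had 19, and with no filter on low values it had 4.

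The other genes among the 10 largest called differences in each direction were as follows. Edn1, the vasoconstrictor endothelin 1, had a change of 0.10 with AA147 and 2.26 with tunicamycin, a difference of -2.16 (95% CI -2.43 to -1.89). Apln, the angiogenic peptide apelin, differed by -2.01 (95% CI -2.44 to -1.57); it passed the filter through the tunicamycin libraries alone, with means of 0.326 FPKM with AA147, 4.55 FPKM with tunicamycin and 0.5 and 0.538 FPKM in vehicle sets 1 and 2. Fkbp11, an ER prolyl isomerase, differed by -1.55 (95% CI -2.18 to -0.92) and Zcchc12, a zinc knuckle protein, by -1.53 (95% CI -2.21 to -0.85). In the other direction, where tunicamycin libraries had the lower values, Ly6c1, a surface protein of endothelium and leukocytes, had a change of 0.06 with AA147 and -2.31 with tunicamycin, a difference of 2.38 (95% CI 1.98 to 2.77). Rgs5 differed by 1.66 (95% CI 1.39 to 1.93), Cldn5 by 1.32 (95% CI 0.96 to 1.67), Pltp, the phospholipid transfer protein, by 1.96 (95% CI 1.47 to 2.45), and Ly6a by 1.95 (95% CI 1.48 to 2.42). Ttr, Mgp, Pglyrp1, Srarp and Itm2a made up the rest of the 10 largest, with differences of 1.28 to 2.95. Of 20 endothelial genes 9 were called with the AA147 change above and 1 with it below, and of 10 pericyte genes 5 with it above. Over all 13028 genes tested, 0.353% were called with the AA147 change above and 0.261% with it below. Of 26 sterol genes 2 were called with the AA147 change above; no rod, cone, bipolar, amacrine or ganglion cell gene was called.

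**Figure D5:**
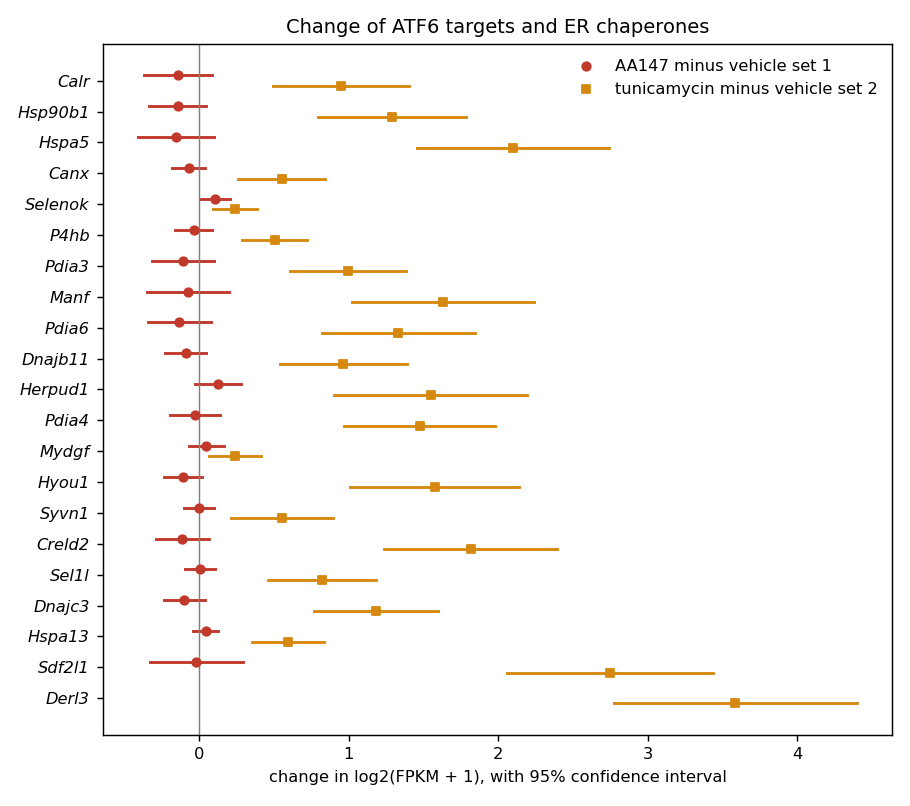
Change in log2(FPKM + 1) with its 95% confidence interval (x axis) for 21 ATF6 targets and ER chaperones, AA147 minus vehicle set 1 (red) and tunicamycin minus vehicle set 2 (orange). Red intervals come from the fit over 10 libraries and orange ones from the fit over 20 libraries, so their widths are not comparable. The AA147 changes lie between -0.15 and 0.13, with every upper bound at or under 0.29 in the fit over 10 libraries. Tunicamycin changes reach 2.10 for Hspa5 and 3.59 for Derl3. Derl3 has no AA147 interval because it was under the filter.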

How the data were processed

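Retinal RNA of 25 mouse libraries, 5 in each of 5 groups, was sequenced by the study from stranded mRNA libraries, per the labels' protocols. The authors deposited FPKM values per gene, rounded to 2 decimals, per the file headers; RSEM 1.2.18, HISAT2 2.0.4, DESeq2 1.4.5 and the GRCm39 assembly appear, without roles, in the submitters' processing notes. The AA147 and vehicle set 1 tables list the same 18676 genes, and the other tables list 19102. No counts were used; depth was estimated from the spacing of low FPKM values of 2021 genes with 1 transcript, and intervals rest on the spread between libraries. No columns were left out.

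Values were analysed as log2(FPKM + 1), with a pseudocount of 1, over genes with at least 1 FPKM in 5 of 10 libraries. Groups were compared with limma 3.58.1 in R 4.3.3 (moderated test with an intensity trend, two-sided, Benjamini-Hochberg adjustment over all tested genes, threshold 0.05), tested on simulated data first. A second fit over 20 libraries tested the AA147 change minus the tunicamycin change over genes with at least 1 FPKM in 5 libraries. Python 3.11.15 with pandas 2.3.3 and matplotlib 3.10.9 made the tables and figures. The libraries, the 46 gene lists (893 of 919 symbols matched; 0 of 22 mitochondrially encoded genes were listed) and the tests were chosen with earlier results of these data known. Named genes were up to 15 called genes without overlap in each direction, or, with fewer than 5, the 10 of smallest p; 31 pathway genes; per list the called members, or the 2 with the highest mean FPKM; and the 10 largest called differences from tunicamycin in each direction. Members with an unadjusted p under 0.05, and Lcn2, Jun, Cldn5, Rgs5, Canx and Derl3 and other list members given beyond this, were named after their values were seen. Promoter windows came from RefSeq with GRCm38.p6, which is not the build named in the notes. Replicate numbers did not pair the libraries. The alternatives covered the pseudocount, filter, scaling, trend, weights, block, vehicle set and each library left out. Some genes that these rules name are not reported here.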

Additional observations from a re-analysis of the deposited data

Results flagged for a closer look

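In 262 tests of groups of 5 libraries, 17 had a highest or lowest library whose gap to the nearest other exceeded 0.71 of the group's range (Dixon's 95% criterion), where chance gives about 1 in 20, or 13.1. In the AA147 group, library 2 was high for Cxcl10 (5.27 FPKM, the others 1.74 to 2.41) and Mbp (47.46, the others 10 to 11.24). Library 3 was high for Dad1 (186.1, the others 125.37 to 140.08) and Bcl2l1 (36.22, the others 34.75 to 34.94). Library 4 was low for Hspa8 (630.3, the others 727.53 to 764.88), and library 1 was low for Psmb7 (106.92, the others 124.2 to 130.64).

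In vehicle set 1, library 1 was high for Gfap (53.2 FPKM, the others 27.56 to 34.04) and H2-D1 (67.87, the others 44.63 to 48.83), and low for Septin4 (100.4, the others 114.86 to 117.92). Library 2 was high for Spcs1 (67.18, the others 48.26 to 51.61), Acly (93.8, the others 81.66 to 84.94) and Ccna2 (18.37, the others 13.78 to 14.93), and low for Selenok (70.94, the others 78.1 to 79.27). Library 4 was low for Zfp971 (8.96, the others 9.93 to 10.31) and high for Psmb4 (154.42, the others 134.85 to 139.98). Library 5 was high for Ttr (116.79, the others 52.6 to 69.87) and Gapdh (4591.63, the others 3789.37 to 3937.2).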

How the results depend on the processing

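The AA147 count against vehicle set 1 was 0 under every pseudocount, filter, scaling, weighting and covariate tried, and without each library (range 0 to 0). Those without AA147 libraries 4 and 5, with the lens mean, and with lens and Y-linked means as covariates were chosen after seeing the data. With vehicle set 2 as control, which crosses table families, 5701 genes were called (2652 higher, 3049 lower), and with both sets 3004 (1425 higher, 1579 lower); the cause was not tested. The replicate block gave 0 calls and, for the difference from tunicamycin, 74. After the group mean of each gene was subtracted, same-numbered AA147 and vehicle libraries correlated at 0.14, 0.39, -0.22, -0.44 and -0.03. By this measure 1 of 5 matched its own number best, so the numbers were not taken as pairs. The count of differences from tunicamycin, 80, was 74 to 90 under the other settings, 59 to 344 with 1 library left out and 358 (98 above, 260 below) with array weights; the 344 (121 above, 223 below) came without tunicamycin library 3. The cause was not tested.

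Of 131 named genes tested, 100 had the other sign in at least 1 setting; none of these genes was called with vehicle set 1 as the control. Called with the other sign against vehicle set 2 were Mex3c (-0.22), Plekhj1 (-0.30), Sel1l (-0.22), Atf6 (-0.30), Gclm (-0.45), Srxn1 (-0.16), Spcs1 (-0.54), Ftl1 (-0.38), Btg2 (-0.46), Jund (-0.43) and Psmb7 (-0.51), and Lgmn (0.27), 4930467E23Rik (0.35), H2bc4 (1.31), Hsp90b1 (0.39), Pdia4 (0.24), Hyou1 (0.39), Creld2 (0.48), Calr (0.54), P4hb (0.17), Hspa8 (0.30), Acly (0.16), Gnat1 (0.44), Septin4 (0.31), Tpm3 (0.28), Mylk (0.37), Nr1d1 (0.39) and Ddx3y (0.34). With both sets as control these were H2bc4 (0.56), Atf6 (-0.14), Gclm (-0.21), Spcs1 (-0.25), Btg2 (-0.22) and Psmb7 (-0.22). Depth was estimated, not given, and genes near 1 FPKM rest on few fragments.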
